A study of Mus musculus with 8 samples.

Results

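The BCL2 family decides whether the mitochondria of a cell release the factors that set off apoptosis. It was followed here in mature dendritic cells (maDC) of Mettl3WT and Mettl3KO mice. Its 10 members were taken by symbol: 3 anti-apoptotic genes (Bcl2, Bcl2l1 and Mcl1), 2 effectors (Bax and Bak1) and 5 BH3-only genes (Bid, Bad, Bcl2l11, Bbc3 and Pmaip1). All 10 were found among the 11743 genes present in both deposited tables. Of these genes 10321 reached a mean of 1 RPKM in input mRNA and in footprints and were tested, 9 members among them. Bcl2 was left out of the tests, with a mean of 0.865 RPKM over the 4 input libraries.

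Both genotypes were on the C57BL/6 background and carried floxed Mettl3 alleles (Mettl3 fl/fl). Only the KO also carried Cre driven by the CD11c promoter. This Cre removes some of the exons of Mettl3, and only in cells that express it. Marrow of 6-week-old mice was cultured in GM-CSF (10 ng/ml) and IL-4 (1 ng/ml), CD11c+ cells were taken on beads, and all cells received LPS (100 ng/ml, 24 h) and, before harvest, cycloheximide, which holds ribosomes in place. From each lysate, mRNA (input) and ribosome-protected fragments (RPF) of 80S monosomes were sequenced, with 2 replicates in each of the 4 groups. The study names several pairs of littermates but not which mice made up which replicate, so p-values speak only of the spread among these samples, part or all of which may be technical. In bulk samples, fewer cells of a type and less RNA per cell cannot be told apart.

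As background, effector proteins such as BAX and BAK open the outer mitochondrial membrane, anti-apoptotic proteins such as BCL2, BCL-XL and MCL1 hold them in check, and BH3-only proteins counter that check or act on the effectors directly. Binding between the groups runs through the BH3 helix, a short stretch that each group carries. Levels of the most labile members, MCL1 and NOXA among them, depend on steady translation because the proteins are degraded quickly. Dendritic cells are known to live for a short time after activation. METTL3 is the enzyme that places N6-methyladenosine (m6A) in mRNA.

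The sequences of the BH3 core are shown because this stretch is what the members share. In the longest annotated coding sequence of each gene, 10 codons are given as coding DNA, 5′ to 3′, and the 7 codons in capitals run from the conserved leucine, over 3 codons of any kind, to glycine, alanine or serine, then aspartate and then aspartate, glutamate or glycine.
Bcl2: accCTCCGCCGGGCTGGGGATGACttctct
Bcl2l1: gcgCTGAGAGAGGCAGGCGATGAGtttgaa
Mcl1: accCTGCGGCGCGTGGGCGACGGCgtgcag
Bax: tgtCTCCGGCGAATTGGAGATGAActggac
Bak1: cagCTTGCTCTCATCGGAGATGATattaac
Bid: catCTCGCCCAAATAGGCGATGAGatggac
Bad: gagCTCCGAAGGATGAGCGATGAGtttgag
Bcl2l11: gagCTGCGGCGGATCGGAGACGAGttcaac
Bbc3: cagCTGCGGCGGATGGCGGACGACctcaac
These sequences came from the RefSeq annotation and genome of GRCm38.p6, and each lay within 1 exon: Bcl2 at chr1:106712575-106712604 (minus strand), Bcl2l1 at chr2:152829697-152829726 (minus strand), Mcl1 at chr3:95659433-95659462 (plus strand), Bax at chr7:45465997-45466026 (minus strand), Bak1 at chr17:27022531-27022560 (minus strand), Bid at chr6:120897289-120897318 (minus strand), Bad at chr19:6950789-6950818 (plus strand), Bcl2l11 at chr2:128147147-128147176 (plus strand) and Bbc3 at chr7:16313770-16313799 (plus strand). The codon pattern occurred exactly once in each of these 9 members and not in Pmaip1, while 10.3% of tested genes with a curated transcript (10294) held it. The pattern was set to describe the BH3 core, so its presence in the members was given beforehand and is not a result. Its absence from Pmaip1 concerns this pattern only and does not show that NOXA, the protein of Pmaip1, lacks a BH3 stretch. A match is a description of the letters and no test of binding.

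The genotype labels were checked with Mettl3 itself. Its input level was 6.97 and 10.1 RPKM in WT replicates 1 and 2 and 6.27 and 11.9 RPKM in the libraries labelled KO, so it was not lower in replicate 2. Its RPF level was 34.0 and 9.63 RPKM in WT and 15.3 and 5.88 RPKM in KO. It was lower in both replicates, as were 35.9% of all tested genes. The RPF change of Mettl3 was above that of 22.4% and 11.65% of tested genes in replicates 1 and 2 (adjusted p = 0.9994 by limma). The values are per gene and only some exons of Mettl3 were targeted, so reads on the remaining exons may still count. These values alone therefore do not settle the labels. The study reports, from its own assays, that Mettl3 mRNA and protein were abolished in KO cells. The dendritic cell marker Itgax, which encodes CD11c, was at 16.2 to 25.9 RPKM in input, and all 12 dendritic cell markers listed were in both tables, with a summed input of 5596 to 7664 RPKM. In RPF, Itgax was at 228 and 58.9 RPKM in WT and 48.8 and 33.2 RPKM in KO, lower in both replicates. Input of macrophage markers (11 of 12 in both tables) summed to 10530 to 11240 RPKM in WT and 8044 to 13900 RPKM in KO. Input of neutrophil markers (14 of 15) summed to 5531 to 6126 RPKM in WT and 3451 to 6526 RPKM in KO, with KO replicate 1 the lowest for both lists. T and NK cell (9 of 10), mast cell and basophil (8 of 9) and B cell markers (3 of 5) stayed at or below a summed 67.9 RPKM in input. In RPF the sums were 235.5 to 364 RPKM for mast cell and basophil, 32.6 to 114 RPKM for T and NK cell and 3.24 to 17.1 RPKM for B cell markers. For macrophage and neutrophil markers no RPF sum is given, as RPF of 1 gene of each list in replicate 2 was scaled to a length of 1 base. The part of any of these cells in the values that follow was not tested. RPF values as deposited were lower in KO by a median of 0.46 (log2) in replicate 1 over all tested genes and by 0.03 in replicate 2. Changes are therefore given as deposited and, where stated, relative to the median of all tested genes. Depth could be read from the values of replicate 2 only, with 9920474 (WT) and 8794578 (KO) input reads and 4835140 (WT) and 5276406 (KO) RPF reads.

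Of the 10 members, Mcl1 had the highest mRNA level and Bcl2 the lowest in every input library. The related Bcl2a1 paralogs are no members, and their summed input of 812.5 to 1366 RPKM was above that of Mcl1. Mcl1, which encodes a short-lived anti-apoptotic protein (chr3:95656944-95663179), had an input level of 328 and 311 RPKM in WT and 321 and 307 RPKM in KO, above 98.1 to 98.4% of tested genes. The 4 values lay within a narrow band and the genotypes hardly differed. Bcl2l1, the gene of BCL-XL (chr2:152758732-152833803), stood at 17.4 and 27.4 RPKM in WT and 14.03 and 23.9 RPKM in KO, higher in replicate 2 of both genotypes. Bcl2 (chr1:106538176-106714290) was at 0.472 and 1.23 RPKM in WT and 0.765 and 0.994 RPKM in KO, above no more than 2.0% of tested genes in any input library. Thus the 3 anti-apoptotic genes differed widely in input level, with Mcl1 the highest and Bcl2 the lowest. The low rank of Bcl2 follows in part from the filter, as other genes below it were left out of the ranking.

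Both effectors were well expressed. Bax (chr7:45461695-45466903) had input levels of 100.1 and 151 RPKM in WT and 108 and 117 RPKM in KO, and Bak1 (chr17:27019812-27028627) had 80.0 and 81.0 RPKM in WT and 74.2 and 85.0 RPKM in KO. Bax was above Bak1 in all 4 input libraries, and the values of the genotypes overlapped for both. Among BH3-only genes, Pmaip1, which encodes NOXA, an antagonist of MCL1, was the most abundant, with 39.4 and 56.7 RPKM in WT and 61.3 and 57.8 RPKM in KO. Pmaip1 was higher in KO than in WT within each replicate. Bcl2l11, which encodes BIM (chr2:128126038-128162547), followed with 34.6 and 32.7 RPKM in WT and 31.4 and 29.1 RPKM in KO. It was lower in KO within each replicate. Bad, whose protein is held inactive by phosphorylation (chr19:6941861-6951905), was nearly level at 29.1 and 28.8 RPKM in WT and 27.1 and 28.5 RPKM in KO. In KO replicate 2 Bcl2l11 and Bad were almost equal, and these neighbours in the order were separated by little more than their spread. Bbc3, the gene of PUMA, a target of p53 (chr7:16308398-16318334), was at 13.1 and 23.0 RPKM in WT and 14.9 and 15.5 RPKM in KO. Bid, whose protein is cut by caspase-8 (chr6:120893119-120917062), was the lowest BH3-only gene, with 8.35 and 14.5 RPKM in WT and 7.84 and 13.9 RPKM in KO. Bid was below Bcl2l1 and Bbc3 in all 4 input libraries, while these changed places in KO replicate 1, where Bbc3 was at 14.9 and Bcl2l1 at 14.03 RPKM. Of the bases in exons of Bad, 34% are shared with Gpr137 on the opposite strand, a gene at 18.3 to 27.2 RPKM in input, and the sources used here do not state whether strand was used in counting, so reads of these genes cannot be told apart there. No other member shared exon bases with a gene on the opposite strand, and Bcl2l11 shared 215 bases with Acoxl on its own strand.

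**Figure D1:**
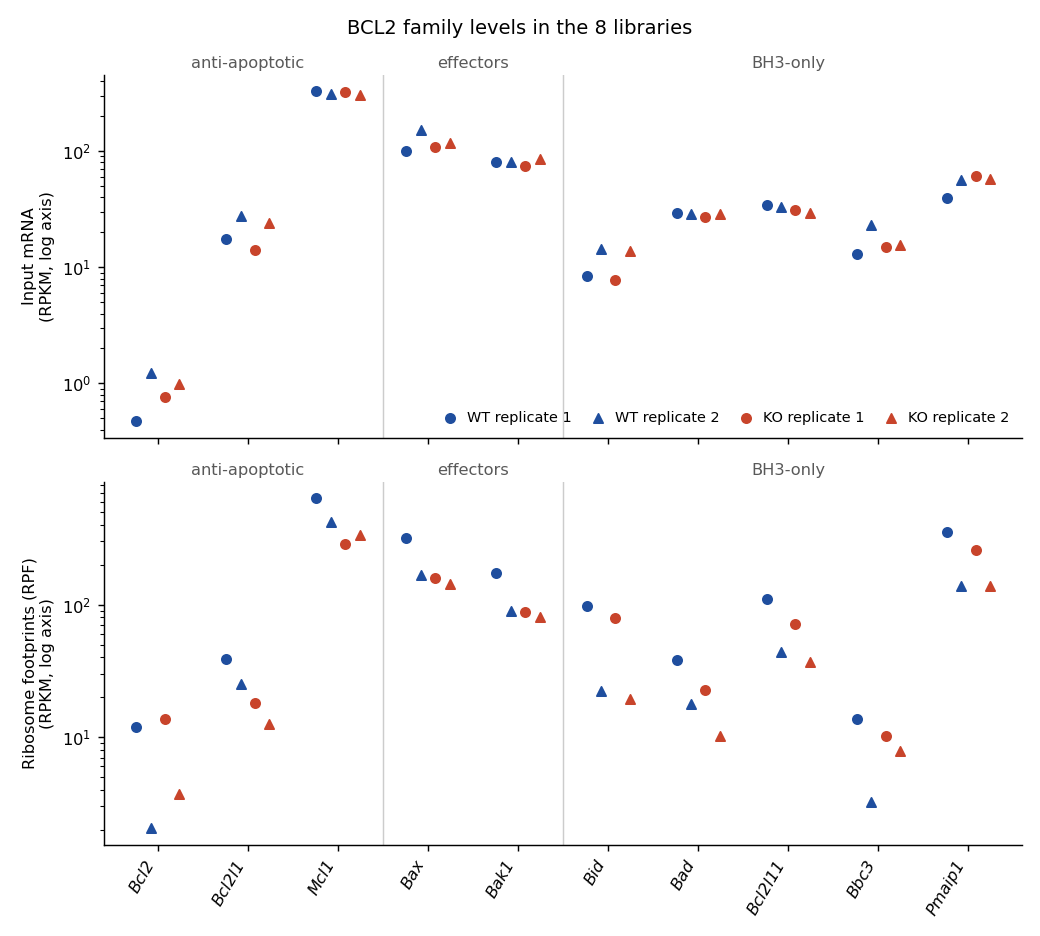
RPKM (log axis) of each BCL2 family gene in input mRNA (top) and ribosome footprints (bottom), with 1 point per library, circles for replicate 1, triangles for replicate 2, blue for WT and red for KO. Mcl1 sits at 307 to 328 RPKM in all input libraries, Bcl2 at 0.472 to 1.23 RPKM, and RPF values of replicate 1 lie above those of replicate 2 for most members.

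The order changed from mRNA to footprints, chiefly through Pmaip1 and Bid. Pmaip1 had 354.5 and 138 RPKM of RPF in WT and 257 and 138 RPKM in KO, and it ranked with Mcl1 and Bax rather than with the other BH3-only genes. Translation efficiency (TE), the ratio of RPF to input in a lysate, was 8.99 and 2.43 for Pmaip1 in WT and 4.20 and 2.39 in KO. As the tables may be scaled differently, ranks within a lysate are easier to compare. By TE, Pmaip1 stood above 92.0% and 87.7% of tested genes in WT and above 80.1% and 85.6% in KO, high in all 4 lysates. Bid stood above 94.7% and 72.1% in WT and above 94.3% and 65.6% in KO, higher in replicate 1 than in replicate 2 of both genotypes. In replicate 1 Bid reached 97.4 (WT) and 78.7 (KO) RPKM of RPF, against 22.3 and 19.4 RPKM in replicate 2.

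Bad and Bbc3 were at the other end. By TE, Bad stood above 29.9% and 24.6% of tested genes in WT and above 25.8% and 9.99% in KO. Bbc3 stood above 23.3% and 1.56% in WT and above 20.7% and 19.2% in KO, low in every lysate, and its value in WT replicate 2 rested on 9 reads. Thus the BH3-only genes differed widely among themselves, with Pmaip1 above 80.1% or more and Bad and Bbc3 above 29.9% or fewer of tested genes. Bcl2l11 was steady, above 61.4% and 65.1% in WT and 60.9% and 61.0% in KO. Bax ranged from 44.7 to 61.8%, Bak1 from 37.2 to 55.3%, Mcl1 from 27.7 to 65.7% and Bcl2l1 from 19.8 to 48.0%. The ranges of these 4 overlapped, with Bcl2l1 below the middle in all 4 lysates. In KO replicate 1 Mcl1 (27.7%) was close to Bad (25.8%), and in KO replicate 2 Bcl2l1 (19.8%) was close to Bbc3 (19.2%). Bcl2 stood above 96.3% and 70.6% in WT and above 95.8% and 89.4% in KO, but its replicate 2 values rested on 7 (WT) and 14 (KO) RPF reads. The library spread of RPF of Bcl2 was wide, with 11.9 and 2.05 RPKM in WT and 13.8 and 3.75 RPKM in KO.

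**Figure D2:**
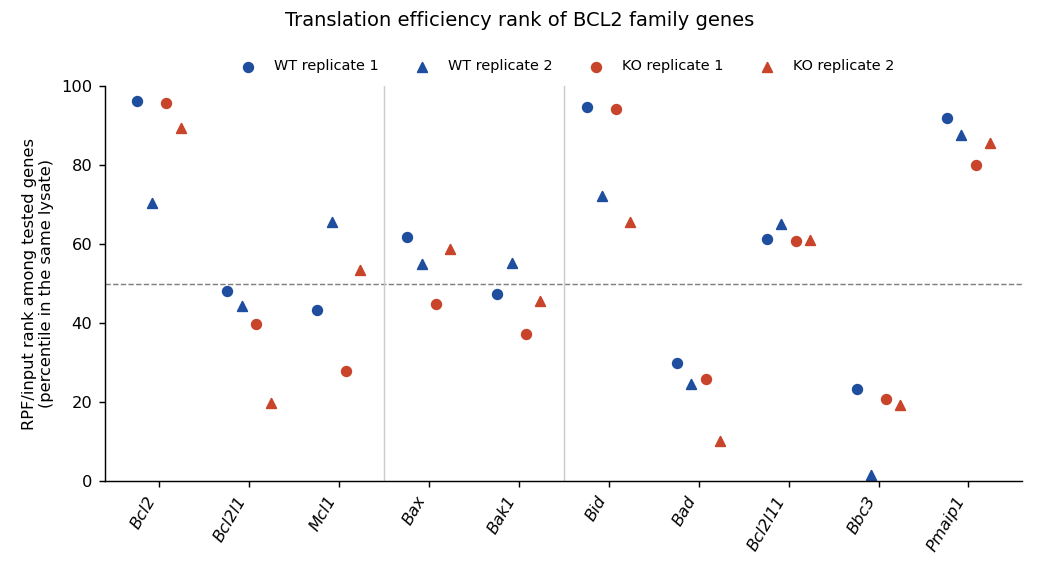
Percentile of each gene's RPF/input ratio among the tested genes of the same lysate (circles, replicate 1, triangles, replicate 2, blue, WT, red, KO), with the middle of the distribution as a dashed line. Pmaip1 lies between 80.1 and 92.0 in all 4 lysates, and Bad and Bbc3 lie between 1.56 and 29.9.

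Set against the summed RPKM of the 10 members, Mcl1 took 50.4 and 42.8% of the family's input in WT and 48.5 and 45.2% in KO. Its share of the RPF sum was 35.5 and 45.1% in WT and 28.3 and 42.8% in KO. Pmaip1 took 6.06 and 7.80% of input in WT and 9.28 and 8.52% in KO, and 19.8 and 14.9% of RPF in WT and 25.6 and 17.5% in KO. The share of Pmaip1 was therefore larger in footprints than in mRNA in all 4 lysates, and larger in KO than in WT within each replicate. Its RPF level was not higher in KO to match, at 354.5 and 137.9 RPKM in WT and 257.3 and 138 RPKM in KO. As a group, the anti-apoptotic genes held 46.7 to 53.1% of the input sum and 31.5 to 48.0% of the RPF sum, the effectors 27.7 to 31.9% and 24.7 to 28.2%, and the BH3-only genes 19.2 to 21.6% and 24.3 to 43.8%. The BH3-only share of RPF was 34.3 and 24.3% in WT and 43.8 and 26.9% in KO. The summed RPF of these genes was lower in KO, with 613.4 and 224.9 RPKM in WT and 440.6 and 212.5 RPKM in KO. These shares are descriptions of mRNA and footprints per length and were not tested.

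**Figure D3:**
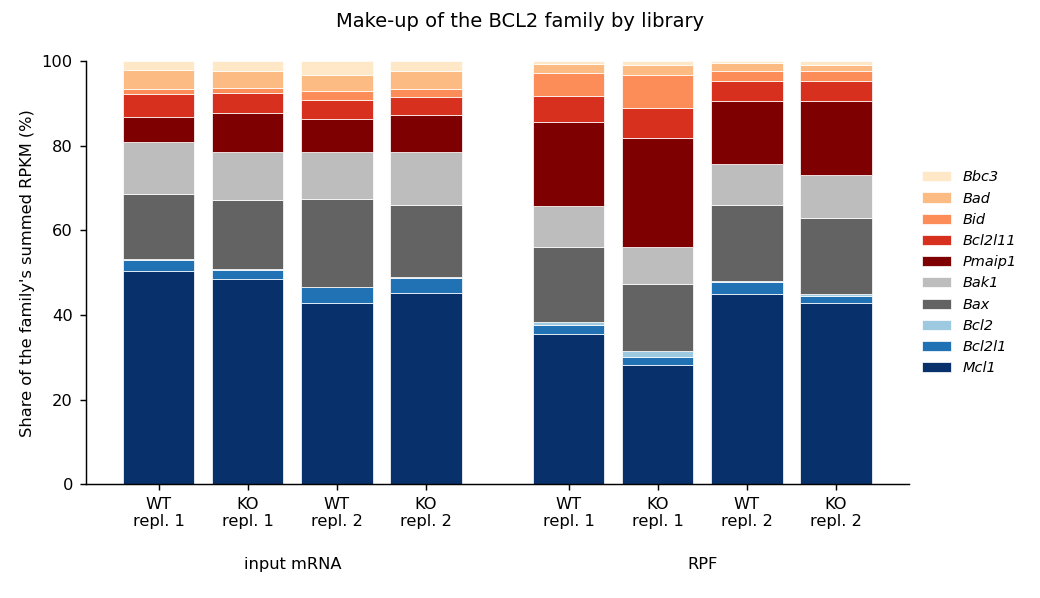
Stacked bars of each gene's share (%) of the summed RPKM of the 10 members in the 8 libraries, input mRNA on the left and RPF on the right, with blue for anti-apoptotic genes, grey for effectors and red to cream for BH3-only genes. Mcl1 takes 42.8 to 50.4% of input and 28.3 to 45.1% of RPF, and Pmaip1 grows from 6.06 to 9.28% of input to 14.9 to 25.6% of RPF.

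Whether loss of Mettl3 went with a change of these genes was asked by comparing KO with WT within each replicate. No member passed the test in any measure. By limma with Benjamini-Hochberg adjustment, 0 of the 9 tested members had an adjusted p below 0.05 in input (0% of all tested genes did), in RPF (0.242%) or in TE (0.203%), and 0 of 9 had an unadjusted p below 0.05, which 3.28%, 5.6% and 5.68% of all tested genes had. The adjusted p of the members was 0.9996 in input, 0.990 to 0.9994 in RPF and 1 in TE. Their standard errors were 0.16 to 0.22 (log2) in input but 0.59 to 0.65 in RPF and 0.61 to 0.65 in TE, so that the 95% intervals in footprints reached more than 2-fold to either side of the fitted value. A p that misses the threshold does not show equal levels, and the intervals are given with the values.

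In mRNA, the fitted difference of KO minus WT was small for most members. Mcl1 differed by -0.03 (log2, 95% interval -0.54 to 0.49), Bak1 by -0.02 (-0.44 to 0.41), Bad by -0.06 (-0.44 to 0.33) and Bid by -0.07 (-0.45 to 0.30). Each of these intervals lay within a 1.5-fold change in either direction. Pmaip1 had the highest value, 0.33 ± 0.20 (SE, n = 2 per group, -0.14 to 0.80), made of 0.63 in replicate 1 and 0.03 in replicate 2. Its change in replicate 1 was above that of 98.2% of tested genes and in replicate 2 above that of 57.2%. Bcl2l1 had the lowest value, -0.25 ± 0.17 (-0.62 to 0.13), with -0.30 and -0.19 in the replicates. Bcl2l11 differed by -0.15 (-0.54 to 0.23), Bax by -0.13 (-0.61 to 0.35) and Bbc3 by -0.19 (-0.66 to 0.28), the last pair with opposite signs in the replicates (0.11 and -0.37 for Bax, 0.17 and -0.55 for Bbc3). Of the 9 tested members 5 were lower in KO in both replicates, a pattern that 26.3% of all tested genes had, and 1 was higher in both (19.9% of all tested genes).

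In footprints, 7 of the 9 tested members were lower in KO in both replicates, against 35.9% of all tested genes. Relative to the median of all tested genes the count was 6, against 24.4%. Of the dendritic cell markers, 9 of 12 were lower in KO in RPF in both replicates as deposited, and 5 relative to the median. At least 1.5-fold lower were 3 of 12, Itgax among them, against 6.03% of all tested genes. In input, 2 of the 12 were lower in both replicates (26.3% of all tested genes) and 2 were higher (19.9%). Of the neutrophil markers, 10 of 14 were lower in input in both replicates and 0 were higher. For mast cell and basophil markers 4 of 6 were lower in input and 1 was higher. For macrophage markers 1 of 11 was lower and 0 were higher, and for T and NK cell markers 2 of 7 were lower and 4 were higher. Macrophage markers were lower in RPF in both replicates in 5 of 11 and neutrophil markers in 4 of 14. For mast cell and basophil markers it was 2 of 6, and for T and NK cell markers 0 of 7. The part of these cells in the members' values was not tested. The tested members had a median change of -0.75 in replicate 1 and -0.23 in replicate 2, and all tested genes had -0.46 and -0.03. Bcl2l1 had 38.7 and 25.2 RPKM of RPF in WT and 18.1 and 12.5 RPKM in KO, lower in KO within each replicate. Its log2 change was -1.08 and -0.98 in the replicates, -0.62 and -0.96 relative to all tested genes, and -1.03 ± 0.62 in the fit (-2.25 to 0.19, adjusted p = 0.990 by limma). Mcl1 had 635 and 417 RPKM of RPF in WT and 285 and 338 RPKM in KO, also lower in KO within each replicate. Its change was -1.15 and -0.30, and -0.73 ± 0.60 in the fit (-1.91 to 0.45). Bcl2, which was not tested, went the other way in both replicates, by 0.20 and 0.74. Without a filter on low values it had a fitted change of 0.47 ± 0.67.

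Among the effectors, Bax had 318 and 166 RPKM of RPF in WT and 160.3 and 142 RPKM in KO, and Bak1 had 173 and 89.7 RPKM in WT and 88.3 and 80.7 RPKM in KO. In both cases WT replicate 1 stood well above the other 3 libraries, which were close together. The changes of Bax (-0.99 and -0.23) and Bak1 (-0.97 and -0.15) were alike, with fitted values of -0.61 (-1.77 to 0.56) and -0.56 (-1.73 to 0.61). Of the BH3-only genes, Bad had 38.3 and 17.9 RPKM of RPF in WT and 22.5 and 10.1 RPKM in KO. Its change was -0.75 and -0.79 (fit -0.77 ± 0.63, -1.998 to 0.46), nearly the same in both replicates, although the WT and KO ranges overlapped. Gpr137, which shares exon bases with Bad, had 3.80 to 24.1 RPKM of RPF, and its part in the RPF and TE of Bad was not tested. Bcl2l11 had 109.5 and 43.6 RPKM in WT and 72.0 and 37.1 RPKM in KO, a change of -0.60 and -0.23. Bid changed by -0.31 and -0.19 and Pmaip1 by -0.46 and 0.00, all within 0.2 of the median of all tested genes in their replicate. Bbc3 was split, with 13.6 and 3.22 RPKM in WT and 10.1 and 7.86 RPKM in KO, a change of -0.41 and 1.17. A value at least 1.5-fold lower in KO in both replicates was seen for 2 members, Bcl2l1 and Bad, a pattern that 6.03% of all tested genes had. Relative to the median of all tested genes it was seen for Bcl2l1 alone, against 3.17% of all tested genes.

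**Figure D4:**
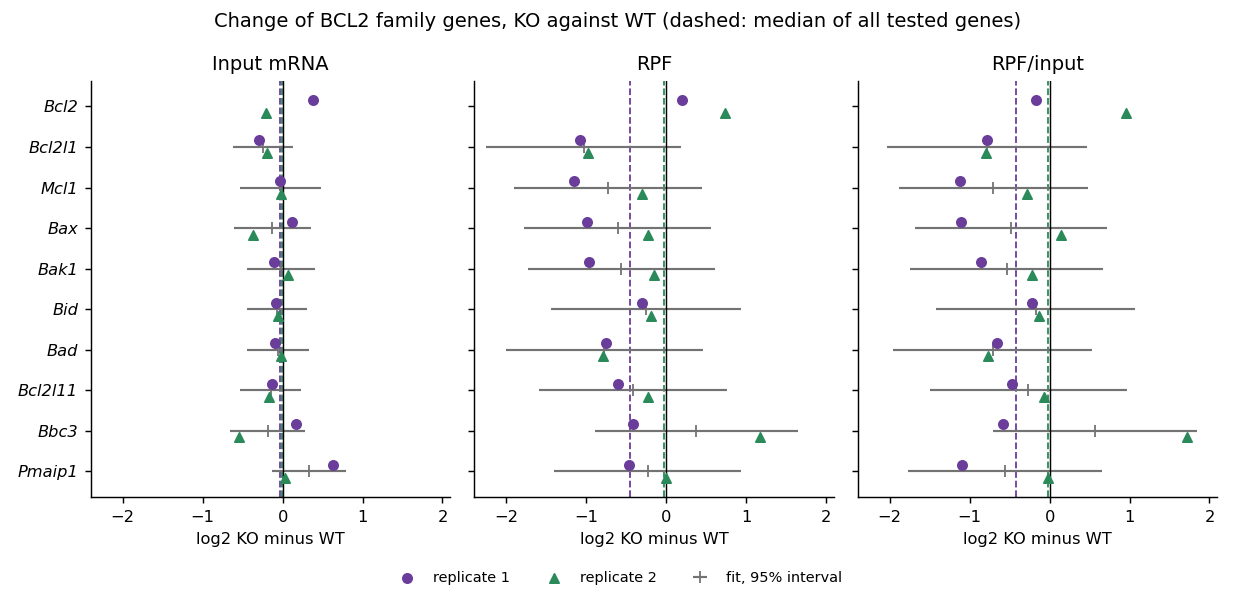
Difference of KO minus WT (log2 of RPKM + 0.5) of each gene in input mRNA, RPF and RPF/input, with circles for replicate 1, triangles for replicate 2, grey ticks and lines for the fitted value and its 95% interval, and dashed lines for the median of all tested genes in each replicate. Every interval crosses 0, Bcl2l1 and Bad have their replicates closest together below 0 in RPF (-1.08 and -0.98, -0.75 and -0.79), and Bbc3 has its replicates on opposite sides of 0.

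TE shares its RPF values with the comparison of footprints. It was lower in KO in both replicates for 7 of the 9 tested members, against 34.2% of all tested genes, and for 6 relative to the median (24.7%). Of the markers, 8 of 12 of dendritic cells, 7 of 11 of macrophages and 0 of 14 of neutrophils were lower in TE in both replicates, and their part in these values was not tested. Bcl2l1 had a TE of 2.23 and 0.918 in WT and 1.29 and 0.522 in KO, a log2 change of -0.78 and -0.79 (fit -0.79 ± 0.64, -2.04 to 0.47). Bad had 1.32 and 0.620 in WT and 0.833 and 0.356 in KO, a change of -0.65 and -0.77 (fit -0.71, -1.96 to 0.53). These 2 were also the members at least 1.5-fold lower in KO in both replicates, a pattern seen in 6.67% of all tested genes, and relative to the median no member had it (3.92% of all tested genes did). Mcl1 had 1.94 and 1.34 in WT and 0.889 and 1.10 in KO, a change of -1.12 and -0.28. Pmaip1 changed by -1.09 in replicate 1 and -0.03 in replicate 2, and Bak1 by -0.86 and -0.22. Bax (-1.10 and 0.14) and Bbc3 (-0.58 and 1.72) changed in opposite directions in the replicates, and Bid and Bcl2l11 were within 0.2 of the median of all tested genes in both.

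The reads recovered from replicate 2 show how much of these values is counting error. They compare 1 WT with 1 KO library of each kind, and the exact intervals (95%) cover counting error only, since reads carried no molecular identifiers and are not independent molecules. Bcl2l1 had 85 (WT) and 46 (KO) RPF reads, a log2 ratio per library total of -1.01 (-1.56 to -0.48). Mcl1 had 2004 and 1772 reads, a ratio of -0.30 (-0.40 to -0.21), so its smaller difference was the best determined. Bax had 463 and 432 reads (-0.23, -0.42 to -0.03) and Bad 42 and 26 reads (-0.82, -1.58 to -0.08). Bbc3 had 9 and 24 reads (1.29, 0.13 to 2.58), the only interval above 0. For the other members the interval of RPF crossed 0, with 272 and 267 reads for Bak1, 63 and 60 for Bid, 124 and 115 for Bcl2l11, 206 and 225 for Pmaip1 and 7 and 14 for Bcl2. Over the tested genes the median was 88 RPF reads in WT and 97 in KO, so Bcl2, Bcl2l1, Bid, Bad and Bbc3 lay below it in both libraries. For TE, among members with reads of both kinds, the interval left out 0 for Bcl2l1 (-0.81, -1.39 to -0.25), Bad (-0.80, -1.61 to -0.01) and Bbc3 (1.85, 0.67 to 3.16). In input it did so for Bbc3 at 450 and 270 reads (-0.56, -0.79 to -0.34), Bax at 1300 and 892 (-0.37, -0.49 to -0.25), Bcl2l1 at 719 and 556 (-0.20, -0.36 to -0.04) and Bcl2l11 at 1636 and 1290 (-0.17, -0.28 to -0.06). How many of all tested genes have an interval that leaves out 0 was not counted, so these intervals do not set the members apart. Whole reads came out on the coding length of the long forms of Bcl2l1 (699 bases without the stop codon) and Bcl2l11 (588 bases), so the deposited values do not separate isoforms of these genes.

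**Figure D5:**
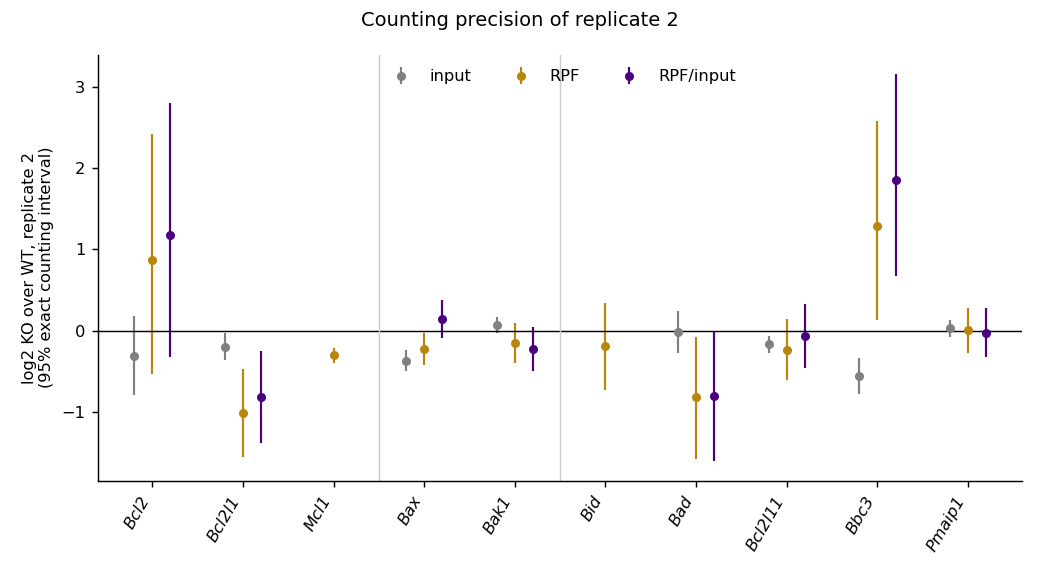
Ratio of KO over WT (log2, scaled to library totals) in replicate 2 for each gene, in input (grey), RPF (gold) and RPF/input (purple), with points for the ratio of reads and bars for the 95% exact counting interval. Input reads could not be recovered for Mcl1 and Bid. Intervals of Bcl2l1 and Bad lie below 0 in RPF and RPF/input, those of Bbc3 lie above 0, and those of Bcl2 and Bbc3 are the widest.

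The letters GGACT, a common form of the sequence in which m6A is placed, were counted on the sense strand of 1 curated transcript per gene, that with the longest coding sequence (the motif cannot overlap itself). All 10 members held at least 1, as did 91.7% of tested genes, so its presence does not set them apart. Bcl2 held 9, Mcl1 8, Bcl2l11 and Bbc3 5 each, Bcl2l1 4, Bax, Bak1, Bid and Bad 3 each and Pmaip1 2, against a median of 3 over the tested genes. Per kb of transcript, Bax had 3.45, Bcl2l1 2.76, Bbc3 2.39 and Mcl1 2.29, while Bcl2l11 had 0.993 and Pmaip1 0.754, and 8 of 10 members lay above the median of 1.06. Within the coding sequence 6 of 10 members held it, against 76.8% of tested genes. No m6A was measured in these libraries, and a match of letters does not show a methylated site.

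The pathways around the family were described from lists. In the other BCL2 family genes (11 of 16 tested), the release factors and apoptosome of the mitochondrial pathway (10 of 10), caspases (7 of 9), inhibitors of apoptosis (7 of 8), the death receptor pathway (11 of 12), inducers of BH3-only genes (8 of 9) and genes of turnover or modification of BCL2 proteins (14 of 14), no gene passed the limma test in any measure. A change of at least 1.5-fold in the same direction in both replicates was met in RPF or TE by 1 gene in each of 5 lists, and by 0 mitochondrial genes and 0 caspases. These 5 of 68 genes stand against 11.8% of all tested genes that met the rule in any measure, with 1.96% higher in KO in RPF and 2.41% higher in TE. Bcl2l14, a family member whose role in apoptosis is less settled, had RPF changes of 0.86 and 1.53 (adjusted p = 0.863), with 155 (WT) and 494 (KO) reads in replicate 2. Birc5, which encodes survivin, an inhibitor of apoptosis needed for cell division, changed by 3.05 and 1.14 in RPF (adjusted p = 0.151), from 19 to 47 reads in replicate 2. Tradd, an adaptor of the TNF receptor, changed by 1.62 and 0.59 in TE. Atf4, a stress-response transcription factor known to induce BH3-only genes, changed by -1.19 and -0.89 in RPF and -1.23 and -0.98 in TE, with 198 and 115 RPF reads and an input change of 0.05 and 0.08. Bag1, a BCL2-binding cochaperone, changed by -1.90 and -0.81 in RPF and -1.13 and -0.84 in TE, with an input change of -0.77 and 0.03. The median RPF change, relative to all tested genes, was -0.30 and -0.20 over the 9 tested members, 0.39 and 0.25 over the other family genes, and 1.55 and 0.20 over the inhibitors of apoptosis. It changed sign between replicates over the death receptor pathway (0.52 and -0.24), caspases (0.39 and -0.09) and mitochondrial genes (0.16 and -0.02). Over inducers of BH3-only genes it was -0.17 and -0.03, and over genes of turnover or modification -0.12 and -0.08. The lists thus differed more in replicate 1 than in replicate 2, and no test over a list was made.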

How the data were processed

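Input mRNA and RPF of mature dendritic cells were analysed in 8 libraries. RPKM values, in which reads are divided by gene length and by library total, were deposited in a table for each replicate. Among tools, the submitters' processing notes list TopHat2 2.0.14, Cuffnorm and bcl2fastq, and as build mm10. Annotation, read filters and how the second table was counted are not given in the sources. Deposited log2 translation efficiencies of the authors were not used. Columns of the second table repeat the names of the first and were taken as the group they name. Symbols were updated through single RefSeq synonyms, and rows with a date for a symbol were left out.

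Genes with a mean of at least 1 RPKM in input and in RPF (10321) were tested on log2(RPKM + 0.5), a scale that understates the change of low genes, with limma 3.58.1 in R 4.3.3 (lmFit, eBayes with intensity trend, two-sided, Benjamini-Hochberg over all tested genes, threshold 0.05). TE was log2 RPF minus log2 input of a lysate. The replicate was a block, as each table may have had its own normalization, which left 1 residual degree of freedom per gene. Same-numbered libraries deviated together from their group means (correlation across genes 0.78 in input, 0.85 in RPF and 0.83 in TE), although the number also marks the table. Prior degrees of freedom were 7.32 in input and infinite in RPF and TE, where SEs therefore rest on the spread pooled over genes. The fits were also run on simulated data with independent noise and large changes. That noise was smaller than the spread of RPF and TE here, so the simulation does not show how well real changes would be found.

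In replicate 2, RPKM times annotated length gave whole reads within 0.01 read for 98.9 to 99.0% of genes with 1 transcript in RPF (coding length) and 80.9 to 81.1% in input (exon length), against 1.96 to 2.42% with lengths of other genes. Replicate 1 showed no such steps, so its depth is unknown. Reads of replicate 2 were compared by exact binomial intervals, and by Fisher's exact intervals for TE. RPF of 241 genes in replicate 2 stood on a length of 1 base, none of them a member. All 10 members are described, and genes of other lists are named where called or changed by 1.5-fold or more in 1 direction in both replicates. Members and lists were chosen with earlier results of these data known. Alternatives were other pseudocounts, filters and scalings, no trend, no block and leaving out each replicate.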

Additional observations from a re-analysis of the deposited data

How the results depend on the processing

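No member was called under any of 13 alternatives, and the smallest adjusted p of a member among them was 0.952. Of 351 values of members under alternatives, 321 kept the direction of the reported value and 30 turned. With each library centred on its median, the fitted change turned to 0.0042 for Mcl1 and to 0.0109 for Bak1 in input, to 0.0066 for Pmaip1 in RPF and to 0.0299 for Bid in TE. With quantile normalization it turned to 0.0152 for Bak1 in input, 0.0059 for Pmaip1 in RPF and 0.0385 for Bid in TE. All other turns came from fits that left out a library, which have no block and so set libraries of different tables against each other. In these, the change in input ranged from -0.62 to 0.13 for Bcl2l1, -0.0633 to 0.0111 for Mcl1, -0.42 to 0.17 for Bax, -0.117 to 0.0777 for Bak1, -0.47 to 0.32 for Bid and -0.58 to 0.20 for Bbc3. In RPF it ranged from -1.30 to 0.80 for Bid, -1.08 to 0.24 for Bcl2l11, -0.58 to 1.34 for Bbc3 and -0.91 to 0.45 for Pmaip1. In TE it ranged from -1.24 to 0.28 for Bax, -1.61 to 1.26 for Bid, -0.89 to 0.35 for Bcl2l11, -0.79 to 1.92 for Bbc3 and -1.50 to 0.38 for Pmaip1. Bcl2l1, Mcl1, Bak1 and Bad stayed lower in KO in RPF and TE in every alternative run, but their size moved without 1 replicate. It ranged in RPF from -1.34 to -0.73 for Bcl2l1, -1.03 to -0.43 for Mcl1, -1.03 to -0.09 for Bak1 and -1.33 to -0.21 for Bad, and in TE from -1.42 to -0.15, -0.97 to -0.44, -1.02 to -0.06 and -1.31 to -0.12. Pmaip1 input ranged from 0.07 to 0.59. Over all tested genes, the 25 calls in RPF became 0 with centring, 0 with quantile normalization, 13 without the trend, 0 without the replicate block and 0 to 1 without 1 replicate. The 21 calls in TE became 35 with a pseudocount of 0.1, 0 with centring, 0 with quantile normalization, 0 without the block and 0 to 2 without 1 replicate. In input the 0 calls became 0 to 52 without 1 replicate, with 32 without KO replicate 1 and 52 without KO replicate 2. The cause of these moves was not tested. Depth limits Bcl2, Bbc3, Bad, Bid and Bcl2l1 most, with at most 85 RPF reads per library in replicate 2.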

Other observations

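The Bcl2a1 paralogs encode A1, an anti-apoptotic protein that NF-kB is known to induce. Bcl2a1a, Bcl2a1b, Bcl2a1c and Bcl2a1d are near-identical copies, and how their shared reads were counted is not given in the sources, so their values are given as 1 uncertain sum. Summed input was 812.5 and 926 RPKM in WT and 1366 and 830 RPKM in KO, above the 307 to 328 RPKM of Mcl1 in every input library. Summed RPF was 2629 and 860 RPKM in WT and 3485 and 936.5 RPKM in KO, higher in KO within each replicate, though WT and KO ranges overlapped. The division among copies differed between the tables, with Bcl2a1d at 222.5 and 67.5 RPKM of input in WT replicates 1 and 2 and Bcl2a1c at 21.8 and 0.454 RPKM.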
